A study of Mus musculus with 32 samples.

Results

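The DART-seq sites described here lie in long internal merged exons. These are middle exons of a gene that span at least 400 bases once its transcripts are merged. N6-methyladenosine (m6A) is a methyl mark that a nuclear complex built around Mettl3 places on adenosines of mRNA, mostly in the context RAC, where R is A or G, and often near stop codons and in long exons. Proteins with a YTH domain bind the mark, and DART-seq reads it out by letting an APOBEC1-YTH fusion deaminate the cytidine that follows the methylated adenosine, so that a site appears as C-to-U (C2U) editing in the reads. Long internal exons are uncommon in vertebrate mRNAs, and several of the best known ones code for large neuronal cytoskeletal proteins.

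The members were all lines of the deposited site list that fell inside a merged internal exon of 400 bases or more on the same strand. Exons were merged per gene over all transcripts of the count table, and internal means neither the first nor the last merged exon. This gave 2720 of 18231 lines (14.9%), in 1788 merged exons of 1499 genes. The 2720 lines hold 2704 distinct positions, because 30 lines repeat 14 positions. Among the listed lines the choice used only positions and gene names. The list itself had been filtered by the authors on measured C2U editing.

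Hippocampal neurons of neonate mice were grown on PET membranes with pores for 15 days in vitro (DIV15), which let neurites be scraped from below and somata from above. Wild-type cultures (WT, strain C57BL/6) and Mettl3Flox/Flox cultures all received AAV with Cre-P2A-dTomato at DIV7 (50000 vector genomes per cell), so the WT controls carry Cre as well, and the floxed cultures are called Mettl3 KO (genotype Mettl3-/-). From DIV14 every culture was kept silent for 16 h by D-AP5 (50 µM), which blocks NMDA receptors, and TTX (1 µM), which blocks sodium channels, and was then left untreated (Ctrl) or given 55 mM KCl for 2 h. Soma and neurites of each genotype and treatment make 8 groups with 2 RNA-seq and 2 DART-seq libraries each. DART-seq libraries were made after incubation of 50 ng RNA with 250 ng APOBEC1-YTH, for 6 h per the labels and for a shorter time per the study's methods. The WT and floxed cultures come from separate mouse lines, so the line and the deletion cannot be told apart, and Cre was driven by a neuronal (hSyn) promoter. Hippocampi of all pups of a litter were pooled for a culture, and replicates came from separate litters.

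Merging transcripts makes many exons longer than any exon of an mRNA, so the label was checked against annotated protein-coding transcripts (GENCODE M21). Only 755 members (27.8%, in 378 genes) lie in an internal exon of at least 400 bases of a coding transcript, and these are called sites in long coding exons below. The other 1965 members lie in 1201 genes. By the transcript with the longest coding sequence that holds the site, 1354 of all members (49.8%) fall in a shorter internal exon, with a median length of 137 bases, and 445 (16.4%) fall in a last exon. A further 127 fall in a first exon and 66 in no exon of a coding transcript. The data therefore go against the label for most members, and values for sites in long coding exons are given beside those for all members where they were computed.

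The sequences around the most edited sites are shown first, at most 1 per gene, because they let the reader see the RAC context. Each is 29 bases of GRCm38 on the strand of the gene, 5′ to 3′, and the capitals mark the R, the methylated A and the edited C. In long coding exons, the 5 genes with the highest editing in WT were Son (chr16:91659473-91659501, plus strand, 31.2% C2U), Zfp131 (chr13:119775883-119775911, minus strand, 22.3%), Kansl1 (chr11:104423941-104423969, minus strand, 19.7%), Iqsec2 (chrX:152208875-152208903, plus strand, 17.1%) and Eif2a (chr3:58548688-58548716, plus strand, 16.5%), all in coding sequence.
Son: aaggatgtagaaGACtcgttacctatcaa
Zfp131: aaacagcaccttAACtgttaccaccttga
Kansl1: agaggaagaactGACtcgagctgatcctg
Iqsec2: gaacagcaagaaGACagctcagccacatc
Eif2a: tgagcatatcttAACagccacatgtgctc
Son is a splicing cofactor of nuclear speckles, Kansl1 belongs to a histone acetyltransferase complex, and Iqsec2 is an exchange factor for Arf GTPases in the postsynaptic density. None of these 5 sites is a GGAC, the context most often named for m6A.

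The highest sites of all members mostly lie outside long coding exons. They were in Psmd12 (chr11:107497814-107497842, plus strand, 47.4%), a subunit of the proteasome, in Mgea5 (chr19:45776932-45776960, minus strand, 36.7%), which codes for the enzyme that removes O-GlcNAc, in Brwd1 (chr16:96008177-96008205, minus strand, 34.8%), in Zhx3 (chr2:160767795-160767823, minus strand, 34.1%) and in Rabgap1 (chr2:37543114-37543142, plus strand, 31.3%).
Psmd12: tttcttactctcGACcttttttgctaaaa
Mgea5: ctatttcgccagGACtagatatcactttt
Brwd1: cactagagaatgGACaaagaagaaaagtt
Zhx3: aatgacagaactGACgatcgtactatctg
Rabgap1: tgacttgctgttGACagactttgagggtg
The Psmd12 and Zhx3 sites are in a 3′UTR of a last exon, and the Mgea5, Brwd1 and Rabgap1 sites are in coding sequence of internal exons shorter than 400 bases.

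The other 4 of the 10 highest genes are predicted genes of a cluster on chromosome 2, and their sites come in pairs with the same 29 bases. Gm14391 (37.2%) and Gm6710 (37.0%) share the first window below, and Gm4724 (28.5%) and Gm14308 (28.0%) share the second. The first window is at chr2:175197408-175197436 on the minus strand in Gm14391 and the second at chr2:175424553-175424581 on the minus strand in Gm4724.
Gm14391: tggatgtttactGACtttcataaaaatca
Gm4724: cattaggtcaaaGACagagaaataatggc
In all, 46 member positions in 24 genes share their 29 bases with another member position, so reads from such copies may have been placed on any of them and these values are uncertain.

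Long coding exons held sites at a lower rate per RAC than short internal exons when all genes were pooled, and at about the same rate within the same genes. Over the exons of genes with at least 1 site, long internal merged exons held 11.5 sites per 1000 RAC trinucleotides, against 33.2 in short internal, 28.1 in last and 18.7 in first merged exons. Long coding exons held 23.7 sites per 1000 RAC, and merged exons without a long coding exon held 9.71. In the 912 genes that have both a site and a long coding exon, long coding exons held 23.7, short internal merged exons 24.6, last merged exons 26.2 and first merged exons 12.5 sites per 1000 RAC. Merged exons include intron sequence of some transcripts, which few mRNAs contain, and the read depth at a position is not known from the files. The deposited site value is 1 average over the WT libraries, so no rate or editing level of sites has a replicate error or a test.

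**Figure D1:**
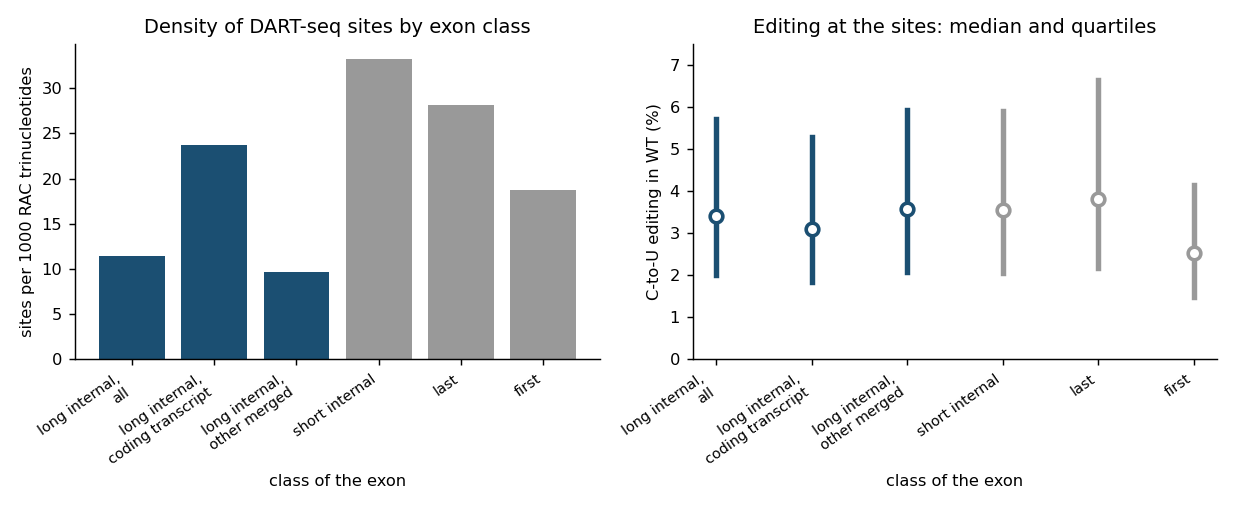
Left, sites per 1000 RAC trinucleotides (vertical axis, from 0) for 6 exon classes of genes with a site; right, the median (circle) and quartiles (bar) of C2U editing in WT in percent at the sites of each class. Long internal exons of coding transcripts reach 23.7 sites per 1000 RAC, other long merged exons 9.71, and the medians lie between 2.53% and 3.81%.

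The rate was lower in long coding exons of 1000 bases or more than in shorter ones. From 400 to under 600 bases it was 29 sites per 1000 RAC (487 exons) and from 600 to under 1000 bases 29.4 (380 exons). It was 18.2 from 1000 to under 2000 bases (219 exons), 19.8 from 2000 to under 5000 bases (71 exons) and 18.4 in the 13 exons of 5000 bases or more. The share of long coding exons with at least 1 site rose over the same bins from 26.7% to 69.2%, as longer exons hold more RAC. At the edge of the rule, internal merged exons from 380 to under 400 bases held 90 sites with a median of 2.92% C2U, and those up to 20 bases above the limit held 94 with a median of 3.56%. The longest merged exons with a member were in Ube2d3 (19684 bases, 2 members), Strbp (14239 bases) and Tmem167 (8970 bases), and none of these is a long coding exon.

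Editing at the members was low and skewed. The median over members was 3.42% C2U in WT (quartiles 2.01% and 5.72%, highest 47.4%), and 222 members reached 10%. Sites in long coding exons had a median of 3.10% and the other members 3.56%, beside 3.55% in short internal, 3.81% in last and 2.53% in first exons. In the 224 genes with both a site in a long coding exon and a site in the last merged exon, the median of the long coding exon was lower in 128 genes (57.1%), and the median difference was −0.341 percentage points. Among members, sites in 3′UTRs had a median of 4.49% (347 sites) and sites in coding sequence 3.28% (2187 sites, 80.4% of members). In long coding exons 94.7% of the sites were in coding sequence.

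The distance to the splice junctions depends on which exons are counted. Among sites in long coding exons, 26.0% lay within 100 bases of an exon end (Wilson 95% interval 23.0% to 29.2%), against 24.6% of the RAC trinucleotides when each exon counts as often as it holds sites, which is inside the interval. When all RAC of the same exons are pooled, the longest exons dominate and the share is 18.2%. Among members in merged exons without a long coding exon, 44.4% lay within 100 bases of a merged end (interval 42.2% to 46.6%), against 25.4% of RAC weighted in the same way. Of the 1354 members in short transcript exons, 1310 lie within 100 bases of an end of the transcript exon, which is short itself. Over all members the shares were 38.3% for sites, 24.1% for RAC weighted by sites and 16.3% for pooled RAC. The intervals cover counting error only, and sites of 1 exon are not independent.

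**Figure D2:**
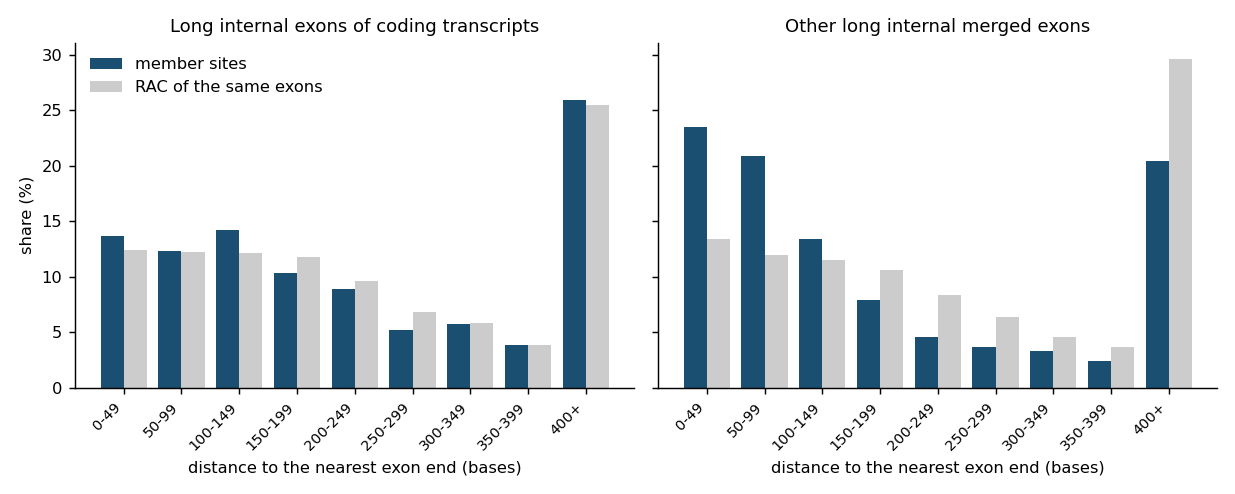
Share of member sites (dark) and of RAC trinucleotides of the same exons, weighted by the number of sites in each exon (light), in bins of distance to the nearest exon end in bases; vertical axis in percent. In long internal exons of coding transcripts the share of sites within 50 bases is 13.6% beside 12.4% of RAC, and in other merged exons it is 23.5% beside 13.4%.

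Members and the RAC trinucleotides around them were close in some contexts and apart in others. GGAC made up 16.3% of members and 14.9% of RAC in the exons with a member, and in long coding exons 16.0% of sites and 18.7% of RAC. AGAC made up 17.2%, TGAC 16.4% and CGAC 6.03% of members, beside 16.9%, 15.3% and 3.87% of RAC. At the low end, TAAC made up 5.22% of members and 8.67% of RAC. In long coding exons AGAC made up 18.4% of sites and 18.2% of RAC, TGAC 16.3% and 14.3%, and CGAC 8.21% and 7.04%. TAAC made up 3.71% of sites and 3.86% of RAC there, so its lower share among all members was hardly seen in long coding exons. Median editing was lowest at GGAC (2.37%) and highest at TAAC (4.89%). It did not follow the shares throughout, with 3.43% at CGAC, 4.22% at TGAC, 3.03% at CAAC and 4.03% at AAAC. The base after the edited C was G in 16.0% of members and 8.85% of RAC, and a following C went with the lowest median editing, 2.35%, against 4.27% for A. The broader context DRACH, where D is any base but C and H any base but G, held 68.1% of members and 77.8% of RAC in these exons, and 62.8% of sites and 69.8% of RAC in long coding exons. Only sites in RAC had been kept by the authors, so the R, the A and the C are not findings. Within coding sequence the edited C was the third base of its codon at 54.5% of sites and 53.9% of RAC, with 20.8% and 21.4% at the first base.

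Map1a, the microtubule-associated protein 1A of dendrites and axons (chromosome 2, 121289600 to 121310832, plus strand), had the most members, 19 of its 23 sites, all in a coding exon of 8104 bases. Map4 and Scrn1 had 11 members each, Arhgef7 and Srrm2 9, and Tulp4, Btbd3 and Cep170b 8. Meg3, an imprinted non-coding RNA, had 9, and 1500011B03Rik had 8 lines at 4 positions. Of these 10 genes, Map1a (19), Srrm2 (8), Cep170b (5) and Tulp4 (4) had sites in long coding exons, and the members of Map4, Scrn1, Arhgef7, Btbd3, Meg3 and 1500011B03Rik were all elsewhere. The 11 members of Scrn1 and the 8 of Btbd3 lie in what the coding transcript has as its last exon. Most genes had few members: 900 of 1499 had 1, and 79 had 5 or more. Neighbouring positions within an exon were a median of 150.5 bases apart, and 52 of 916 gaps were under 10 bases.

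In Map1a, editing ran from 0.572% to 10.8% with a median of 2.63%. The 3 most edited sites were at chr2:121303898-121303926 (10.8%, AGAC), chr2:121300347-121300375 (8.13%, AAAC) and chr2:121302651-121302679 (7.31%, CAAC), in the order shown, to let the spread of contexts within 1 exon be seen.
Map1a, AGAC site: ccaacacagacaGACagagctccagaaca
Map1a, AAAC site: ccagcaaaatcaAACatcgggccgacagc
Map1a, CAAC site: gctgtactattcAACtgttgccagaacaa
Its first site lay 650 bases and its last 7820 bases from the 5′ end of the exon, with none between 1570 and 3396 bases. Srrm2, a scaffold of nuclear speckles, had 8 sites in an exon of 6569 bases, between 1.58% and 11.1%. Son had 5 in an exon of 5970 bases, between 1.64% and 31.2%. Map2, which stabilises microtubules in dendrites, had 7 in an exon of 3741 bases, between 2.83% and 10.2%, and Map1b had 7 in long coding exons, between 0.999% and 12.6%.

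**Figure D3:**
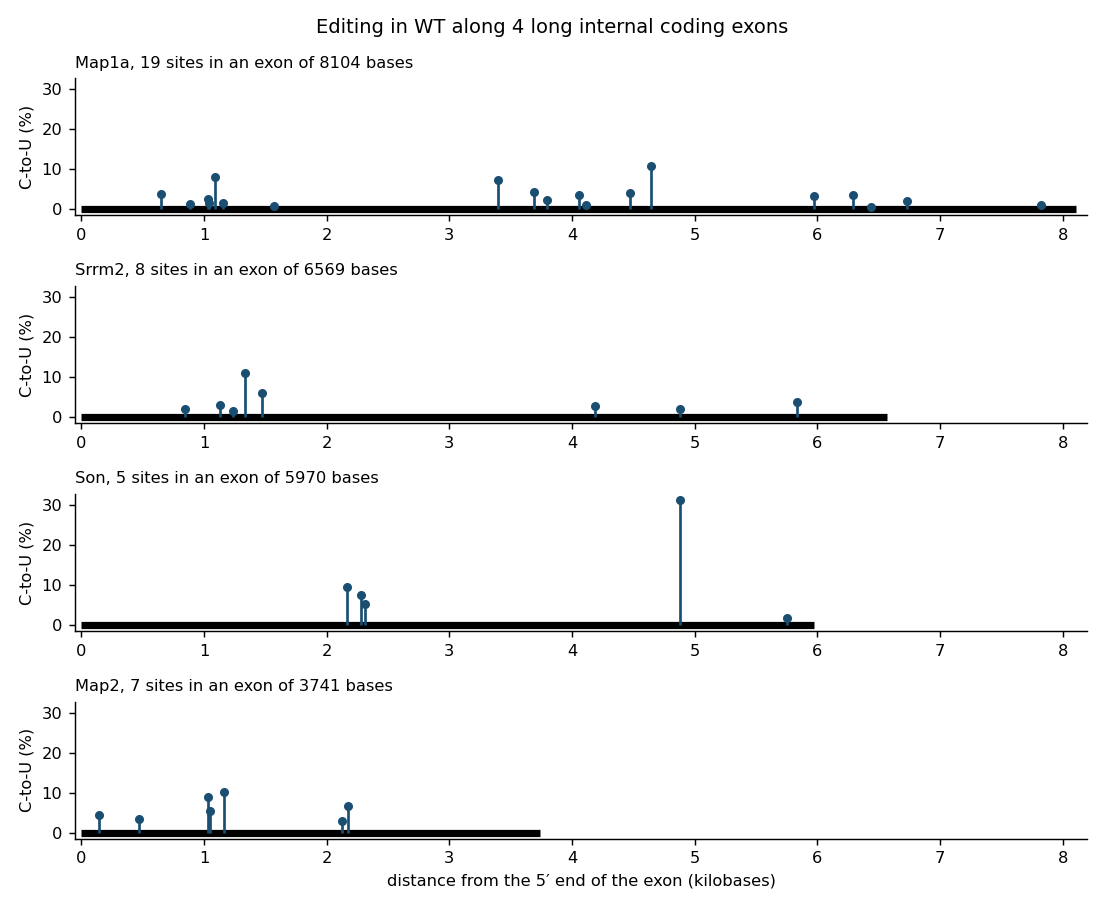
C2U editing in WT (vertical axis, percent) at each site against the distance from the 5′ end of the exon in kilobases (horizontal axis) in the long coding exons of Map1a, Srrm2, Son and Map2; black bars show the exon. Map1a has 19 sites along 8104 bases, and the Son site of 31.2% stands above all other sites drawn.

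Over all genes, 1499 of the 5570 with an assigned site had a member, and whether any list differs from this was not tested. Of 30 genes of the microtubule and spectrin cytoskeleton, 23 had a site and 15 a member, with 71 members, 54 of them in long coding exons and 19 in Map1a alone. Of 21 postsynaptic scaffold genes, 17 had a site and 11 a member (27 members), among them Dlgap4, Homer1 with 5 and Shank3 with 4. Of 16 splicing factors rich in SR repeats, 14 had a site and 9 a member (28 members, 20 in long coding exons). Of 17 presynaptic active zone genes 10 had a site and 4 a member (Erc2, Unc13a, Ppfia3 and Bsn). Of 59 chromatin regulators 27 had a site and 9 a member, led by Ankrd11, Jmjd1c and Kansl1, and of 40 zinc finger and homeobox factors 7 had a site and only Zhx3 had members. Of 18 genes of the m6A pathway itself, 10 had a site and 8 a member. The subunits of the methyltransferase complex Zc3h13 and Wtap had 3 each, those of Zc3h13 all in long coding exons with up to 10.9% C2U, and Mettl3 had 2 (10.8% and 1.11%) in a short coding exon.

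Editing summed per gene was higher in neurites than in soma for most genes, with and without members. The authors' editing score sums the C2U fractions over the sites of an RNA, repeated lines included, as an average for each compartment or genotype. In 381 genes all listed sites are members, and the neurite score was above the soma score in 215 (56.4%), against 76.8% of the 1118 genes with some sites members, 67.8% of the 4144 genes with no member and 68.8% of all 5643 genes. With 1 site the shares were 51.0% of 241 member genes and 59.7% of 1584 genes without a member, and of 69 genes with all sites in long coding exons 58.0%. These are pooled values with no replicates and no test. The median ratio of neurite to soma score was 1.26 for genes with only members, 1.36 for genes with all sites in long coding exons and 1.33 for all genes, over genes with both scores above 0. With 1 site it was 1.40 for member genes and 1.31 for genes without a member, so the order of the sets differs between the share and the ratio. The ratios leave out genes with a score of 0. With 1 site they cover 204 of the 241 member genes and 1414 of the 1584 others. Over all 241 the median score was 0.0437 in soma and 0.0391 in neurites, so the 1.40 describes only the genes with both scores. Over the 1584 the medians were 0.0369 and 0.0434.

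Single genes illustrate the range. In Map1a, with 19 of 23 sites members, the score was 0.412 in soma and 0.694 in neurites, and in Map2, with 7 of 16, it was 0.467 and 0.825. In Homer1, where all 5 sites are members, both were close (0.124 and 0.125), and in Son the soma score was the higher (0.375 against 0.306). The Homer1 sites lie in a first or a last exon of the coding transcript, and none is in a long coding exon. In Zc3h13 the scores were 0.254 in soma and 0.283 in neurites. Scores in Mettl3 KO were lower, as the calling rule required, with a median ratio of WT to KO of 3.44 for genes with only members and 3.10 for all genes. The ratio was 14.9 in Wtap and 7.14 in Zc3h13, and Mettl3 was listed at 0 in the KO and at 0.136 in WT. The 3 Wtap sites lie in the 3′UTR of a last exon.

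**Figure D4:**
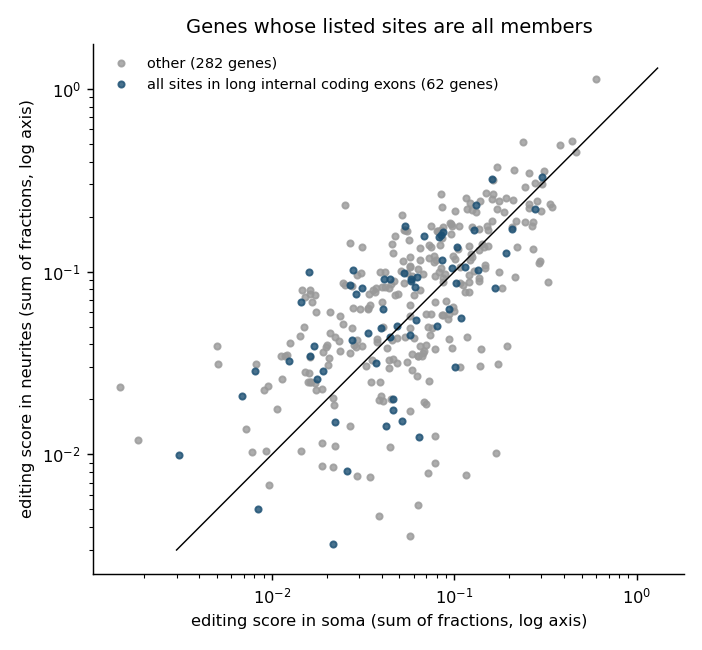
Editing score of each gene in neurites (vertical axis) against soma (horizontal axis), both as sums of C2U fractions on log axes, for the 344 genes whose sites are all members and whose scores are above 0; the line marks equal scores. Dark points are genes with all sites in long internal exons of coding transcripts, and points lie on both sides of the line in both sets.

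RNA-seq shows the level of the host genes in each library. The counts cover whole genes, not the exons with sites. Library totals ran from 33789183 to 71394235 fragments. Mettl3, the targeted gene, was at 17.3 and 16.7 CPM (counts scaled to library size) in the WT Ctrl soma libraries and at 8.69 and 11.6 CPM in the Mettl3 KO Ctrl soma libraries (log2 −0.72, SE 0.38, adjusted p = 0.62 in edgeR, not called), and over all soma libraries and all neurite libraries the genotypes did not overlap. Counts over the whole gene do not single out the floxed exon, so they do not measure the deletion. The study reports loss of that exon from the RNA, near complete loss of METTL3 protein and reduced m6A. Replicates differed more in the KO: the SD of the log2 ratio between the 2 libraries of a group over genes was 0.319 to 0.661 in WT and 0.718 to 1.51 in KO. Neuron markers, 10 of 10 detected, summed to 3846 to 4557 CPM in WT soma and to 4058 to 4450 CPM in WT neurites, and to 630 to 4239 CPM in the KO libraries. Astrocyte markers summed to 1195 to 1630 CPM in WT soma, 2023 to 3253 in WT neurites and 2054 to 18544 in the KO libraries. Microglia markers summed to 10.7 to 26.3 CPM in the WT libraries and to 11.6 to 228 CPM in the KO libraries. Markers of the oligodendrocyte lineage summed to 37.9 to 106 CPM in WT and to 55.3 to 7198 CPM in KO. Those of fibroblasts and vessels summed to 12.1 to 80.9 CPM in WT and to 16.4 to 698 CPM in KO. No marker was at 0 throughout. The part of these markers in the results below was not tested. In such bulk RNA, fewer cells of a type and less RNA per cell cannot be told apart.

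Host genes of members were called in neurites at shares close to those of all genes, and Map1a, Map2 and Shank1 were among those higher in neurites. Of 1496 host genes tested in WT Ctrl, 157 (10.5%) were higher in neurites than in soma, where 8.99% of all 23200 genes tested were, and 77 (5.15%) were lower, where 4.52% were (edgeR quasi-likelihood test, adjusted p of at most 0.05 and 1.5-fold). Of 376 host genes with sites in long coding exons, 54 (14.4%) were higher and 16 (4.26%) lower. Of 4033 genes with sites but no member, 11.2% were higher and 3.89% lower. Hosts were more highly expressed than all genes tested, with a median of the mean counts of 4185 against 326. The median log2 change was −0.10 for hosts and −0.10 for all genes.

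Ppp1r16b, a regulatory subunit of protein phosphatase 1, was at 122 and 89.5 CPM in soma and at 487 and 622 CPM in neurites, with no overlap. Its rise was 2.33 on the log2 scale (SE 0.188, adjusted p = 0.00012), and its 3 members lie in a coding exon of 169 bases. Shank1, a scaffold of the postsynaptic density with 1 member in a coding exon of 3088 bases, was at 51.0 and 42.1 CPM in soma and 192 and 210 CPM in neurites (log2 2.05, SE 0.215). Btbd3, which acts in the orientation of dendrites, was at 201 and 232 CPM in soma and 723 and 872 CPM in neurites (log2 1.82, SE 0.147). In each of these genes the compartments did not overlap. Map1a was at 374 and 418 CPM in soma and 1129 and 1307 CPM in neurites (log2 1.56, SE 0.260), and Map2 at 464 and 478 CPM against 1436 and 1830 CPM (log2 1.73, SE 0.142). The largest falls were in Ing4 (log2 −1.20, SE 0.248), a chromatin protein, Lmbr1l (log2 −1.19, SE 0.190) and Taf15 (log2 −1.15, SE 0.247), an RNA-binding protein. All 3 had low levels. Ing4 was at 5.74 and 4.50 CPM in soma and 2.00 and 2.68 CPM in neurites. Lmbr1l was at 9.14 and 9.28 CPM against 5.16 and 3.24 CPM, and Taf15 at 9.58 and 11.3 CPM against 5.52 and 4.29 CPM. Meg3 was at 2051 and 2000 CPM in soma and 1036 and 880.5 CPM in neurites (log2 −1.15, SE 0.125).

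By list, 9 of 17 active zone genes were higher in neurites (median log2 0.67), 11 of 21 postsynaptic scaffolds (median 0.60) and 7 of 30 cytoskeletal genes (median 0.21), with none lower, and among their hosts of members 2 of 4, 5 of 11 and 5 of 15 were higher. No splicing factor of 16 was higher and 1 was lower (median −0.32), of 59 chromatin regulators 3 were higher and 1 lower, of 39 zinc finger and homeobox factors 6 were higher and 1 lower, and none of 18 m6A genes passed. Of the cell type markers, 5 of 9 for astrocytes (median log2 0.94), 5 of 8 tested for fibroblasts and vessels (1.26), 2 of 7 for the oligodendrocyte lineage (0.53), 1 of 6 tested for microglia (1.02) and 0 of 10 for neurons were higher in neurites. With all 16 libraries in the fit the spread of the KO libraries entered and no gene was called. Without WT Ctrl soma replicate 2 the host counts were 98 higher and 17 lower, and the lower count was 30 without WT Ctrl soma replicate 1 and 48 without WT Ctrl neurite replicate 2.

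The largest rises among host genes after KCl were in Npas4, Nr4a1 and Nr4a2, transcription factors known to be induced by activity. In WT soma 49 of 1496 hosts (3.28%) were at least 2-fold higher after KCl and 14 (0.936%) lower, where 3.8% and 3.01% of all genes tested were. Of the 376 hosts with sites in long coding exons, 23 (6.12%) were higher and 5 (1.33%) lower. Of 4033 genes with sites but no member, 4.24% were higher and 0.992% lower, so the low share of falls was not particular to hosts. Whether these shares differ was not tested. Npas4 was at 5.20 and 4.86 CPM without KCl and at 849 and 1613 CPM with KCl (log2 7.94, SE 0.330). Nr4a1, an orphan nuclear receptor, was at 4.62 and 4.31 CPM and at 813 and 927 CPM (log2 7.61, SE 0.177), and Nr4a2 at 5.31 and 5.37 CPM and at 714 and 892 CPM (log2 7.23, SE 0.209). The groups were far apart in all 3 genes. Nr4a1 has 7 members, 2 of them in a long coding exon of 887 bases, and both members of Nr4a2 are in a long coding exon of 866 bases, while both of Npas4 lie outside the exons of its coding transcripts. Homer1, with a short form known to follow activity, was at 19.8 and 17.6 CPM without and 97.4 and 156 CPM with KCl (log2 2.77, SE 0.239, adjusted p = 4.3e-05).

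The largest falls after KCl were smaller than these rises. Ing4 changed by −2.02 on the log2 scale (SE 0.254), Mlycd, the malonyl-CoA decarboxylase, by −1.63 (SE 0.213) and Ano8 by −1.36 (SE 0.226). Ing4 was at 5.74 and 4.50 CPM without and 1.32 and 1.21 CPM with KCl. Mlycd was at 30.3 and 24.6 CPM against 6.93 and 10.7 CPM, and Ano8 at 4.61 and 3.61 CPM against 1.51 and 1.68 CPM. Homer1 was the only postsynaptic scaffold of 21 that rose and Jmjd1c the only host among chromatin regulators, of which 3 of 59 rose and 1 fell. One active zone gene of 17 and 2 m6A genes of 18 rose, and no cytoskeletal gene or splicing factor was called. The count of lower hosts rested on single libraries: it was 5 without WT Ctrl soma replicate 1, 6 without WT KCl soma replicate 1 and 73 without WT KCl soma replicate 2, and none was called with all 16 libraries.

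Loss of Mettl3 was accompanied by few calls among the host genes in untreated soma, at the spread of the KO libraries. No host was higher and 1 of 1496 was lower, where 0.0643% and 0.124% of all 23335 genes tested were. At an unadjusted p of at most 0.05 in edgeR, without a fold limit, 146 hosts passed. So did 2088 of all genes tested and 431 of the 4034 genes with sites but no member. DESeq2 called 20 hosts higher and 9 lower, beside 189 and 224 of all genes. Of the 376 hosts with sites in long coding exons, edgeR called 0 in either direction, and 44 had an unadjusted p of at most 0.05. None of the gene lists held a called gene, and in the fit of the 4 libraries alone no host was called in either direction. Leaving out KO Ctrl soma replicate 1 or 2 leaves 1 library in that group. The median log2 change of hosts was 0.12 without replicate 1 and −0.075 without replicate 2, beside 0.029 with all 16 libraries. The number of calls also changed without replicate 1, and the cause was not tested.

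**Figure D5:**
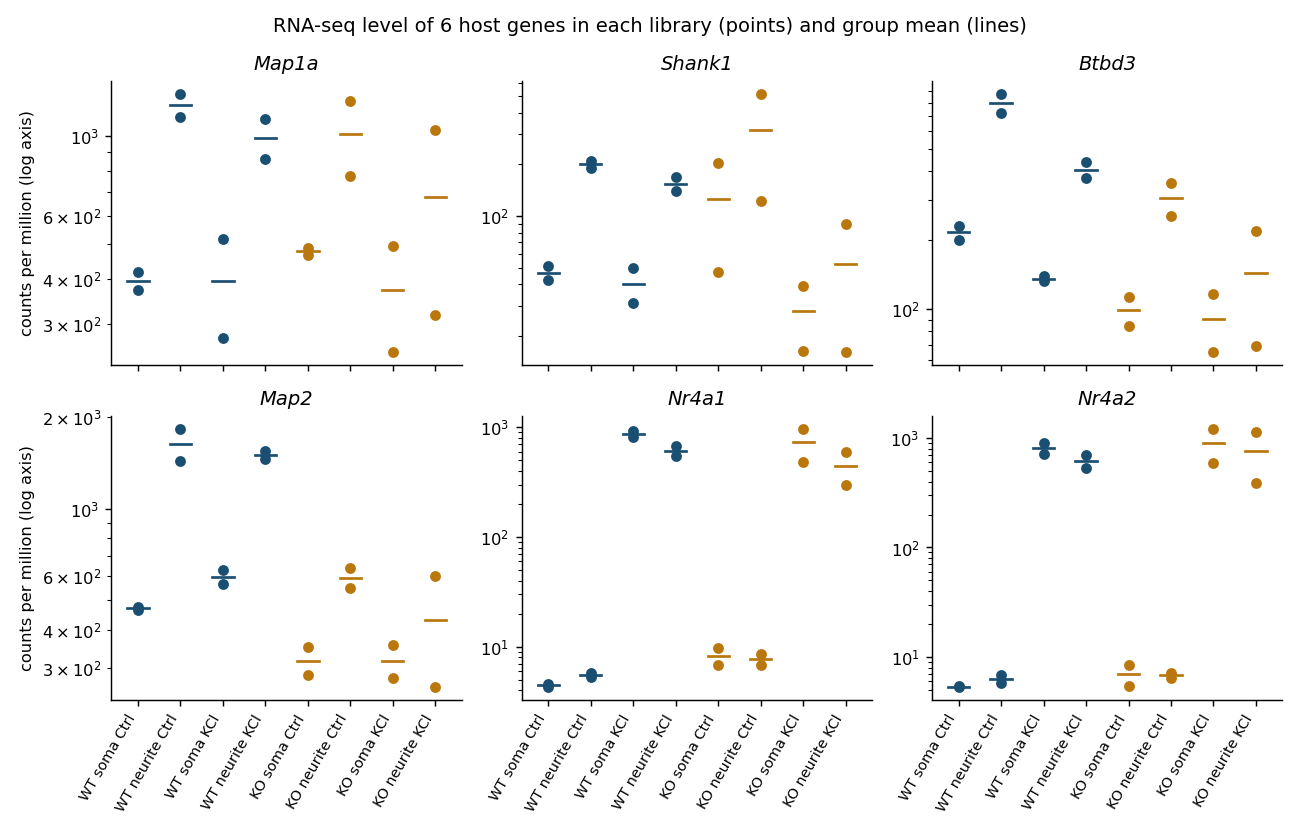
Level of Map1a, Shank1, Btbd3, Map2, Nr4a1 and Nr4a2 in CPM (vertical log axis) in each of the 16 RNA-seq libraries (points) and the mean of the 2 libraries of a group (lines), WT in blue and Mettl3 KO in orange. Map1a, Shank1, Btbd3 and Map2 are higher in WT neurites than in WT soma, and Nr4a1 and Nr4a2 are higher with KCl in WT soma.

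The difference in neurite enrichment between Mettl3 KO and WT was called for few hosts and only without adjustment. Fitted with 1 term per insert, at an unadjusted p of at most 0.05 and 1.5-fold, 29 of 1496 hosts (1.94%) had a higher and 6 (0.401%) a lower neurite enrichment in KO Ctrl than in WT Ctrl, where 2.96% and 1.33% of all genes did, and no gene passed an adjusted p of 0.05 in edgeR. Of 376 hosts with sites in long coding exons 3 (0.798%) were higher and 2 (0.532%) lower. Of 4034 genes with sites but no member, 3.27% were higher and 0.595% lower. Map2 had the lower enrichment in KO, with 351 and 285 CPM in KO soma and 549 and 637 CPM in KO neurites (log2 difference −0.93, SE 0.387, unadjusted p = 0.041, adjusted p = 0.93). Bri3, whose 2 members lie in the 3′UTR of a last exon, differed by 1.35 (SE 0.351). In the gene lists, the called genes were 2 cytoskeletal genes and 1 active zone gene with lower and 1 zinc finger and homeobox factor with higher enrichment. Among the cell type markers, 1 each of the neuron, oligodendrocyte lineage and fibroblast and vessel lists had lower enrichment (median log2 difference −0.22, −0.48 and −2.00), and their part in the result was not tested. Without the insert term the counts were 2 and 1. Leaving out KO Ctrl insert 1 gave 155 and 252, KO Ctrl insert 2 131 and 29, WT Ctrl insert 1 5 and 1, and WT Ctrl insert 2 4 and 0.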

How the data were processed

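The deposited count table holds whole-number counts of fragments per gene; according to the labels and its header the authors aligned reads with STAR 2.7.7a to mm10 and counted with featureCounts 2.0.1, reads mapping to several places included and with no strand setting, so overlapping and antisense genes cannot be told apart. In the site list the authors deposited a C2U fraction, averaged over WT libraries, for RAC positions with at least 50 reads, 3 C2U reads and 1.5-fold over Mettl3 KO. In the authors' gene table the editing score is a sum of such fractions, and a further column gives the deposited count of sites; its log2 fold changes and p-values, and those of the authors' DESeq2 tables, were not used.

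Exons were merged from the count table. Of 18231 lines, 237 met no exon and 40 met several genes and named none. RefSeq GRCm38 sequence had a C in RAC at all 18231 positions. Comparisons used edgeR 4.0.16 (R 4.3.3), TMM scaling, the quasi-likelihood F-test, two-sided, with Benjamini-Hochberg adjustment over all genes that averaged 10 counts or more, mitochondrial genes left out: the 8 WT libraries for WT comparisons and all 16 for genotype. The neurite, KCl and KO soma fits had group terms only. They did not pair the soma and neurites of 1 insert, or Ctrl and KCl of 1 litter. CPM values are TMM-scaled. On simulated counts with 4-fold changes the test recovered 86.0% (neurites), 93.5% (KCl) and 35.2% (KO) at the adjusted p. For enrichment it recovered 82.5% at the unadjusted p, which does not compare with the others or apply at an adjusted p. The simulated counts had 1 mean per gene, a spread from the trend over genes and no differences between inserts. The shares may therefore not carry over to these data. Named genes were the 10 with most members, the 10 highest sites, the 3 largest rises and falls per comparison (mean count of at least 100, same direction in both replicate pairs), up to 3 per list, the genes of the longest exons and Mettl3; the genes of the highest sites in long coding exons, Map1b and Bsn were chosen after their values were seen. Members and lists were chosen with earlier results of these data known. The soma and neurites of 1 insert share a number in the labels; their replicate differences correlated at −0.072 (WT Ctrl), 0.079 (WT KCl), 0.021 (KO Ctrl) and 0.82 (KO KCl), so the values show the pairing in KO KCl and not in the other 3 pairs of groups. Per the study's methods, replicates are separate litters, with Ctrl and KCl from the same litter. Some genes that this rule selects are not reported here.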

Additional observations from a re-analysis of the deposited data

Results flagged for a closer look

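In 5 named host genes the difference between neurites and soma itself differed between Mettl3 KO and WT in the untreated cultures at an unadjusted p of at most 0.05 in edgeR, and in none at an adjusted p. These genes were named from the hosts that had already passed this threshold, so their passing it adds no support. Of 1496 hosts tested 35 had an unadjusted p of at most 0.05, beside 1002 of all 23335 genes tested. The log2 difference was 1.59 in Trappc6a, 1.58 in Snrpe and 1.35 in Bri3, which were relatively more neuritic in KO. It was −0.93 in Map2 and −0.89 in Noc2l. In Trappc6a the KO soma libraries were at 33.6 and 5.03 CPM and in Snrpe at 24.5 and 4.12 CPM, so the low values of KO Ctrl soma replicate 2 move with both. Over the 11 alternatives per gene, Bri3 kept its call in 10, Trappc6a, Snrpe and Map2 in 4 each and Noc2l in 1.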

How the results depend on the processing

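The number of member sites was 2720 and became 4364 with a limit of 200 bases, 1387 with 1000 bases, 755 in long coding exons and 879 at a WT fraction of at least 0.05. Their median editing was 3.10% in long coding exons and 7.31% at that fraction. The share within 100 bases of a junction was 55.0%, 25.3% and 26.0% under the first 3 of these, 20.5% with a window of 50 bases and 59.9% with 200. The RAC share was 24.9%, 9.80%, 18.2% and, at the fraction limit, 14.3%, and 24.1% with each exon weighted by its sites, an alternative chosen after seeing the data. The coding share was 85.6%, 73.8%, 94.7% and 75.3%, the rate per 1000 RAC 14.7, 8.48, 23.7 and 3.70, and GGAC fell to 9.10% at the fraction limit. Counting sites under 10 bases apart once moved none of these beyond their counting interval.

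Host genes called in neurites numbered 0 higher and 0 lower with all 16 libraries, and 98 to 159 and 17 to 98 with a library left out. After KCl, 0 were lower with all 16 libraries, and 46 to 56 higher and 5 to 73 lower with a library left out. For Mettl3 KO, DESeq2 gave 20 higher and 9 lower, no filter 36 and 6, the 4 libraries alone 0 lower, and leaving out a library 0 to 99 and 1 to 87. With the replicate number as a block, 155 higher and 77 lower (neurites), 48 and 15 (KCl) and 0 and 2 (KO) were called. For the difference in enrichment, an adjusted p gave 0 and 0, DESeq2 47 and 2, no filter 71 and 11, a mean count of 100 2 lower, the libraries alone 8 and 2, no replicate block 2 and 1, and leaving out an insert 4 to 155 and 0 to 252. The cause of these changes was not tested. Of 187 values of named genes under alternatives, 141 stayed past the threshold, 46 did not, and none changed sign. Site depth and spread between DART-seq libraries are not known here, which limits every site value.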
